A study of Mus musculus with 61 samples.

Results

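Lipogenesis, the making of fatty acids from acetyl-CoA, and their assembly into triglycerides were followed through 33 genes in mouse liver, described over the 8 inbred strains that founded the Diversity Outbred mice. The genes were taken by symbol from the count table, which held all 33 among its 18754 genes, and all 33 passed the filter on low counts, which left 16165 genes for testing. They comprised 4 regulators, 5 genes of acetyl-CoA supply and fatty acid synthesis, 4 of NADPH supply, 9 of elongation and desaturation, 4 acyl-CoA synthetases and 7 of glycerolipid synthesis. RNA sequencing of liver gave 60 libraries. There were 8 each of NZO, PWK, WSB, NOD and the strain that the labels name only by its number, 7 each of Cast and B6, and 6 of AJ. The numbered strain is written strain-129, to keep the name apart from measured values, and single libraries are named by strain and number. All mice were on a high-fat, high-sugar diet, given in the labels as 45% fat, and no group on another diet was part of the comparison. The labels name no agent or introduced allele, no sex, no age and no time of collection, and nothing in them says that different libraries came from different mice. All p-values are thus set against the variation among libraries, some of which may be technical.

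In liver, ATP-citrate lyase and acetyl-CoA synthetase supply acetyl-CoA, acetyl-CoA carboxylase makes malonyl-CoA from it, and fatty acid synthase joins these units to palmitate with NADPH as the reductant. Elongases and desaturases then modify the chain, acyl-CoA synthetases activate it, and the glycerolipid enzymes place it on glycerol 3-phosphate, ending with the diacylglycerol acyltransferases. The transcription factors SREBP-1c, encoded by Srebf1 and driven by insulin, and ChREBP, encoded by Mlxipl and driven by glucose metabolites, are known to activate most of these genes after feeding.

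Levels are in CPM, the reads of a gene scaled to the size of its library, itself adjusted between libraries by TMM. Totals ranged from 19.98 to 69.2 M reads a library, with a median of 30.4 M, and an 18S ribosomal RNA sequence took a larger share of reads in NZO (6.05 to 16.04%) than its median over all libraries (5.20%). The 6 hepatocyte markers were present in every library, with Alb at 13109 CPM or above. Of 7 adipocyte markers, 3 were analysed here and summed to 4.83 to 37.7 CPM, with Cfd at 0 in 26 libraries. NZO 8 stood apart from the other NZO libraries: it had the lowest correlation with the mean of its strain's other libraries (Pearson's r of 0.944 over genes, which are not independent), the lowest Alb level, and values below the range of the other NZO libraries for 24 of the 33 genes. Cast 5 and Cast 6 also differed from the rest of their strain. Their correlations with the other Cast libraries were 0.965 and 0.970, among the 5 lowest with NZO 8, NOD 1 (0.964) and Cast 1 (0.967), and both lay below all other Cast libraries for 8 of the 33 genes and above them for 2. Most NZO and Cast results are therefore given with and without these libraries, and leaving out Cast 5 and 6 together was chosen after the data were seen. In RNA from whole tissue, fewer cells of a type and less RNA per cell cannot be told apart.

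The sequence before the start of 4 genes is shown, chosen after their values were seen from the genes called higher in NZO and lower in Cast. Other genes, among them Me1, Elovl6 and Acss2, were called in the same way, as given below. The windows are the 250 bases before the RefSeq start nearest to the gene's start in the deposited table, in GRCm38.p6, an assembly of the B6 strain, written 5′ to 3′ along the gene's strand. The windows lie at chr11:120824548-120824797 (minus strand) for Fasn, chr11:100528001-100528250 (minus) for Acly, chr9:77917115-77917364 (plus) for Elovl5 and chr19:55099478-55099727 (minus) for Gpam. Capitals mark the E-box CACGTG, a sequence ChREBP and USF factors can bind, and the CCAAT box, which is bound by NF-Y and reads ATTGG on the other strand.
Fasn: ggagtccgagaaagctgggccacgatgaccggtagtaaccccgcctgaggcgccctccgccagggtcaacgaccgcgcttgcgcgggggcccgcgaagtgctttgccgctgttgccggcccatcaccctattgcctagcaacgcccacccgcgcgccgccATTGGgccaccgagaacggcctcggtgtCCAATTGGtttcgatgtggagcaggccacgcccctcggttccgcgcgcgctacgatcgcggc
Acly: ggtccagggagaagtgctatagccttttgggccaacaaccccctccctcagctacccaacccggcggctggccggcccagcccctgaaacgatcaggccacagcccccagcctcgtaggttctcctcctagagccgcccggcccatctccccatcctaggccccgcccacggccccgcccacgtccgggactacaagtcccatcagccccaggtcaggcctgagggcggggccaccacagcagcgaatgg
Elovl5: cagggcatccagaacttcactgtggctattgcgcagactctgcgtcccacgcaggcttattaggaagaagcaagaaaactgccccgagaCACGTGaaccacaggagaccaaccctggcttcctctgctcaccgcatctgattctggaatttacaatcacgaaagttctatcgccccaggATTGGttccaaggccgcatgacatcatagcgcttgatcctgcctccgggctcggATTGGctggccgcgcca
Gpam: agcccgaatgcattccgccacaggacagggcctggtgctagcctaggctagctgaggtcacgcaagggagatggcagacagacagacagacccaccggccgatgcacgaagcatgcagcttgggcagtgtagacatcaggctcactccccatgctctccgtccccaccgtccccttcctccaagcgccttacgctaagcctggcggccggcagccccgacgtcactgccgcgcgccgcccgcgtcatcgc
Fasn held 3 CCAAT boxes, the farthest at position -90 from its start, and the other pair overlapped. Elovl5 held 1 E-box and 2 CCAAT boxes, and the Acly and Gpam windows held neither motif. The RefSeq promoter table used here held 38 windows for 27 of the 33 genes. On both strands, an E-box was in 3 of these 38 windows (7.89%, in Elovl5, Lpin2 and Mlxipl) and in 6.02% of all 32851 windows. A CCAAT box was in 16 of the 38 (42.1%) and in 33.8% of all windows. The sequence TCACNCCA, part of a sterol response element, was in 5 of the 38 (13.2%, in Acsl1, Gpam, Mlxipl, Pgd and Tkt) and in 3.67% of all windows. For Gpam this match and a CCAAT box lay before another RefSeq start of the gene, not in the window printed. These matches describe the reference sequence and say nothing of what binds there or of the other strains' sequence.

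Per kilobase of exon, the scale on which genes can be compared, Scd1 had the highest mean level over strains, 2350.4 CPM per kb. Scd1 encodes the main liver stearoyl-CoA desaturase, which makes oleate from stearate. Elovl5, an elongase of polyunsaturated chains, followed at 267 CPM per kb and Elovl2, which acts on longer polyunsaturated chains, at 166 CPM per kb. Acly and Fasn were at 100.5 and 107 CPM per kb. The lowest were Scd2, the desaturase better known from brain, at 2.28 CPM per kb and G6pdx, the first enzyme of the pentose phosphate pathway, at 2.56 CPM per kb. The summed CPM of the 33 genes had a median of 5.66% of the scaled library size in NZO (0.437% in NZO 8 to 7.03%). It was 2.66% in B6, 2.26% in AJ and 1.26 to 1.90% in the other 5 strains. These percentages are of the library size after scaling between libraries, and differ somewhat from shares of the reads. On this scale Scd1 alone made up a median of 3.91% in NZO. The remaining 32 genes made up 1.75% in NZO against 0.742% in Cast to 1.15% in AJ.

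**Figure D1:**
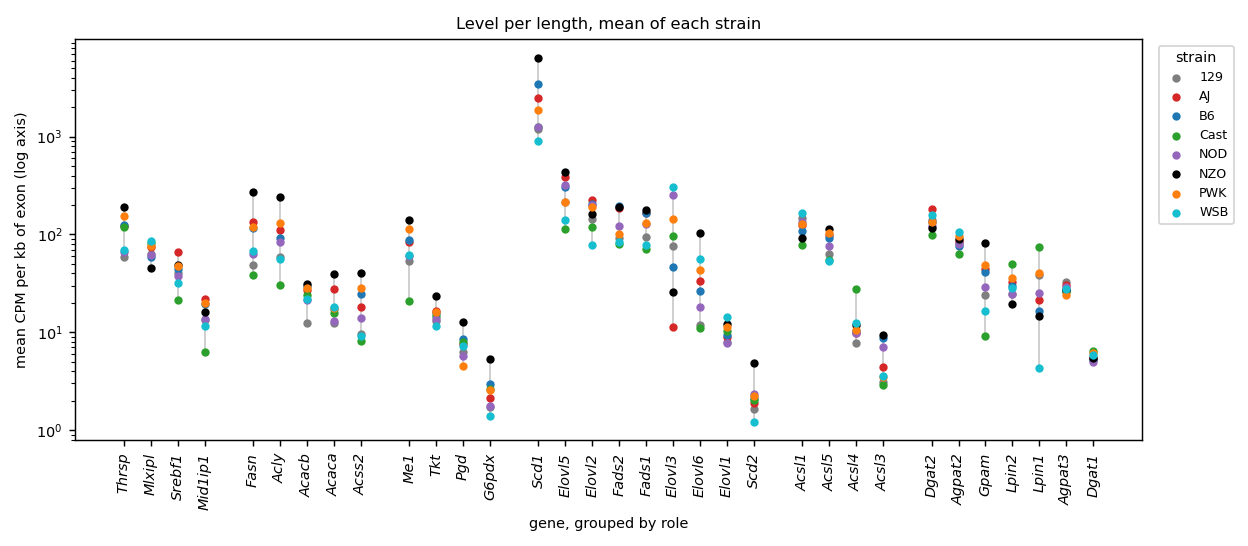
Mean CPM per kb of exon (log axis) of each of the 33 genes, grouped by role and ordered within a role by the mean over strains. Each point is a strain's mean, and the grey line spans the 8 strains. Scd1 stands above all others in every strain, and Lpin1, Elovl3, Gpam, Elovl6 and Fasn show wide spans.

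Among the 8 strains, 30 of the 33 genes were called, meaning an adjusted p under 0.05. The share called over all genes tested was 89.8%, so this count says nothing particular of the lipogenic genes. Every adjusted p given below is from edgeR's quasi-likelihood test with Benjamini-Hochberg adjustment over all genes tested, two-sided. Thrsp (adjusted p = 0.0929), Elovl3 (0.0578) and Acacb (0.0553) were not called. DESeq2 called all 3 (adjusted p = 0.0368 for Thrsp, 0.00902 for Elovl3 and 0.0269 for Acacb). With Xist as a covariate, edgeR called Thrsp (0.0453) and Acacb (0.0106), and several fits that left out 1 library called 1 or more of them. The share of a gene's variance that lay between strains ranged from 13.6% for Elovl3 to 73.4% for Acsl3, with a median of 43.0%, against 49.3% over all genes. NZO had the highest mean of the 8 strains for 18 of the 33 genes, while Cast had the lowest mean for 15 and WSB for 7.

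Each strain was then set against the mean of the other 7 on the log2 scale. In NZO 17 genes were higher and 2 lower, where 46.1% of all genes were called, 26.7% higher and 19.5% lower. Without NZO 8 the counts were 18 higher and 3 lower, with no share of all genes from that fit set beside them. Nothing is therefore drawn from the counts of that fit. In Cast 4 were higher and 17 lower (59.6% of all genes called, 30.8% higher and 28.8% lower). Without Cast 5 and 6, 5 genes were higher and 11 lower, where 50% of all genes were called, 25.4% higher and 24.7% lower. The calls of Acss2, Elovl2, Fads1, Fads2, Acsl1 and Acsl5 then ended, and Mlxipl was called higher (0.61, adjusted p = 0.000284). In WSB 7 were higher and 13 lower (45% of all genes called, 22.6% higher and 22.4% lower). PWK had 9 higher and 3 lower (45.2% of all genes called, 22.5% higher and 22.7% lower), and strain-129 had 2 higher and 6 lower (24.6%, 13.7% higher and 10.9% lower). AJ had 6 higher and 0 lower (24.1%, 13.1% higher and 11% lower), B6 had 4 higher and 0 lower (34.1%, 19.4% higher and 14.7% lower) and NOD had 1 higher and 2 lower (28.3%, 16.7% higher and 11.6% lower). As a share of the 33, the calls came to 57.6% in NZO, 63.6% in Cast, 60.6% in WSB, 36.4% in PWK, 9.09% in NOD, 12.1% in B6, 18.2% in AJ and 24.2% in strain-129. The median log2 fold change of the 33 genes was 0.67 in NZO, 0.22 in AJ, 0.21 in PWK, 0.15 in B6, -0.14 in NOD, -0.39 in strain-129, -0.39 in WSB and -0.48 in Cast, while that of all genes tested lay between -0.02 and 0.02. These medians are from all 60 libraries, NZO 8, Cast 5 and Cast 6 among them. The 8 contrasts share libraries, since each strain is also part of the mean of the others.

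**Figure D2:**
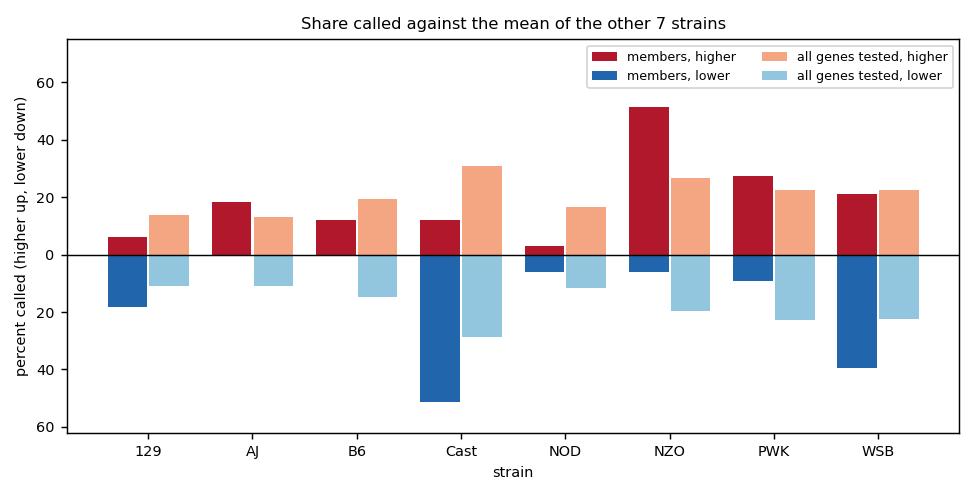
Percent of the 33 genes (dark bars, left of each pair) and of all 16165 genes tested (pale bars, right) called in each strain against the mean of the other 7, higher above the 0 line and lower below it. NZO stands out by its higher genes (17 of 33) and Cast by its lower ones (17 of 33, and 11 without Cast 5 and 6).

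**Figure D3:**
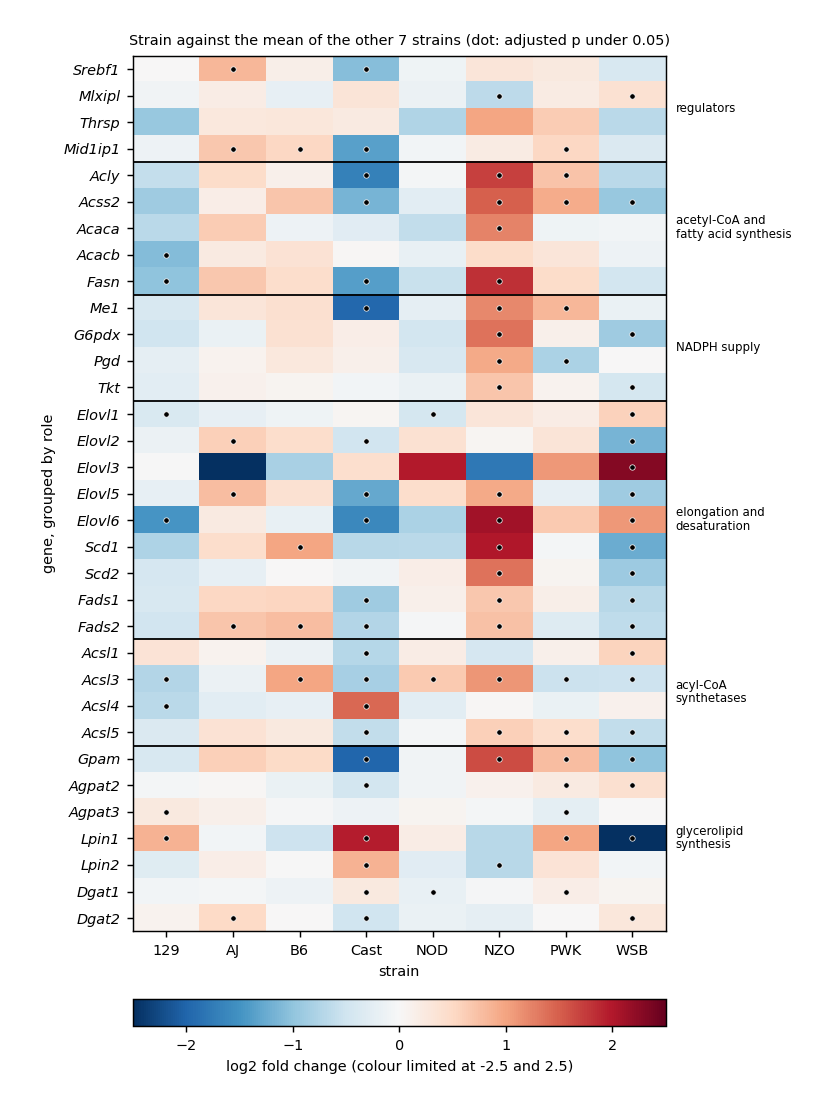
Log2 fold change of each gene (rows, grouped by role) in each strain against the mean of the other 7 (columns), red for higher and blue for lower, with a dot where the adjusted p was under 0.05. The genes from Acly to Fads2 are mostly red in NZO and blue in Cast, while Lpin1 is red in Cast, PWK and strain-129 and blue in WSB.

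Of the 4 regulators, Srebf1 was called in AJ and Cast and Mlxipl in NZO and WSB. Srebf1 had a median of 426 CPM (238 to 443) in AJ, with 4 of the 6 AJ libraries between 422 and 443 CPM. It had a median of 105 CPM (50.3 to 223) in Cast. In the other strains the medians were 249 CPM (61.7 to 288) in strain-129, 229 (147 to 409) in B6, 206 (153 to 275) in NOD, 287 (113 to 371) in NZO, 244 (165 to 420.4) in PWK and 185 (67.9 to 300.3) in WSB. The lower AJ libraries lay within the range of the other strains, as did the higher Cast libraries. Srebf1 was higher in AJ (log2 fold change 0.83 ± 0.22 SE, adjusted p = 0.00353) and lower in Cast (-1.06 ± 0.24, adjusted p = 0.000195, and -0.83 without Cast 5 and 6). In NZO it was at 0.41 without NZO 8 (adjusted p = 0.103) and was not called in either fit.

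Mlxipl had a median of 263 CPM (117 to 319) in NZO, against 460.3 CPM (324 to 643) in WSB, 359 (285 to 404) in strain-129, 419 (341 to 458) in AJ, 318 (256 to 393) in B6, 566 (150.1 to 698) in Cast, 324 (296 to 408) in NOD and 421 (359.5 to 487) in PWK. It was lower in NZO (-0.65 ± 0.15, adjusted p = 0.000423) in 8 of 8 libraries, and at -0.56 without NZO 8 (adjusted p = 0.00232). In WSB it was higher (0.39 ± 0.14, adjusted p = 0.0211) in 6 of 8 libraries, a call that ended without WSB 1, 3 or 4. Cast libraries spread most, with 3 of 7 between 150.1 and 264 CPM and 4 between 566 and 698 CPM.

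Mid1ip1, on chromosome X, and Thrsp encode paralogous proteins that act with acetyl-CoA carboxylase and lipogenic transcription. Mid1ip1 averaged 46.3 ± 13.3 CPM in AJ, 42.1 ± 8.75 in PWK, 41.7 ± 9.33 in B6, 34.7 ± 12.5 in NZO, 29.2 ± 6.42 in NOD, 28.4 ± 8.47 in strain-129, 24.4 ± 11.7 in WSB and 13.4 ± 6.77 in Cast (SD). It was lower in Cast (-1.36 ± 0.23, adjusted p = 9.11e-07, and -1.07 without Cast 5 and 6) and higher in AJ (0.68 ± 0.20), PWK (0.53 ± 0.18) and B6 (0.51 ± 0.19). The AJ call ended without AJ 3, and the B6 call without B6 1, 2 or 7. Thrsp averaged 415 ± 288 CPM in NZO, 337 ± 152 in PWK, 273 ± 329 in B6, 270.4 ± 124 in AJ, 262 ± 377 in Cast, 152 ± 57.5 in WSB, 146 ± 75.4 in NOD and 128.8 ± 91.1 in strain-129. It was called in no strain. Within Cast it spanned 12.4 to 1045.8 CPM, and within NZO 5.56 CPM in NZO 8 to 834 CPM. Without NZO 8, Thrsp was higher in NZO by 1.15 (adjusted p = 0.0212).

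Of the 5 genes of acetyl-CoA supply and fatty acid synthesis, 4 were called higher in NZO, where 26.7% of all genes were. In Cast 3 were called lower, where 28.8% of all genes were. Acacb was not called in NZO (adjusted p = 0.179), nor were Acaca (-0.29 ± 0.26, adjusted p = 0.36) and Acacb (0.03 ± 0.31, adjusted p = 0.937) in Cast. Fasn, the fatty acid synthase gene, had a median of 3625 CPM (147 to 5764) in NZO and of 352 CPM (223 to 809) in Cast. In the other strains the medians were 1411 CPM (436 to 1994) in PWK, 1149 (554 to 2349) in B6, 1067 (734 to 3581) in AJ, 694 (303 to 1252) in WSB, 676 (428 to 1026) in NOD and 464 (219 to 1112) in strain-129. In NZO, 5 libraries lay at 3108 CPM or above, and of the other strains' libraries AJ 3 alone, at 3581 CPM, reached that level. The other NZO libraries, NZO 5, 6 and 8, lay at 999.9, 426 and 147 CPM, within or below the range of the other strains.

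Fasn was 3.56-fold higher in NZO (log2 fold change 1.83 ± 0.28, adjusted p = 3.12e-07) in 6 of 8 libraries, and by 2.00 without NZO 8. It was lower in Cast (-1.38 ± 0.39, adjusted p = 0.00202, and -1.22 without Cast 5 and 6) in 7 of 7 libraries. In strain-129 it was also lower (-0.999 ± 0.35, adjusted p = 0.0315), a call that ended without strain-129 3, 4, 6, 7, 8 or 9.

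Acly, the ATP-citrate lyase gene, averaged 1264 ± 819 CPM in NZO, 689 ± 301 in PWK, 591 ± 429 in AJ, 487 ± 239.9 in B6, 439 ± 128 in NOD, 312 ± 174 in strain-129, 299 ± 107 in WSB and 162 ± 96.1 in Cast. Acly was higher in NZO (1.71 ± 0.26, adjusted p = 2.63e-07, and 1.86 without NZO 8) and lower in Cast (-1.68 ± 0.37, adjusted p = 8.72e-05, and -1.47 without Cast 5 and 6). In PWK it was higher by 0.70 ± 0.28, adjusted p = 0.036, a call that ended without PWK 1, 2, 4, 6 or 7. Acss2, the cytosolic acetyl-CoA synthetase gene, was higher in NZO (1.49 ± 0.29, and 1.65 without NZO 8) and PWK (0.92 ± 0.31, ended without PWK 6 or 7), and lower in Cast (-1.16 ± 0.39, and -0.89 without Cast 5 and 6, adjusted p = 0.0871) and WSB (-0.96 ± 0.36, ended without WSB 1, 3 or 4). Its reads may include some of Gss, which overlaps it on the other strand, since the use of strand in counting is not given in the sources used here.

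Each acetyl-CoA carboxylase gene was called in 1 strain. Acaca, the cytosolic enzyme of lipogenesis, was higher in NZO (1.24 ± 0.22, adjusted p = 5.72e-06), in 5 of 8 libraries, and by 1.38 without NZO 8. Acacb, the mitochondrial isoform known to restrain fatty acid oxidation, was lower in strain-129 (-1.09 ± 0.32, adjusted p = 0.00914), with a median of 83.8 CPM (33.9 to 261) in strain-129 and of 184 to 371 CPM in the other strains.

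All 4 genes of NADPH supply were called higher in NZO, where 26.7% of all genes were. Me1, the cytosolic malic enzyme, averaged 545 ± 294 CPM in NZO, 438 ± 254 in PWK, 337 ± 210.1 in B6, 319 ± 109.7 in AJ, 239.8 ± 82.5 in WSB, 229.7 ± 65.6 in NOD, 207 ± 56.7 in strain-129 and 80.5 ± 33.5 in Cast. Its 7 Cast libraries lay between 43.5 and 125 CPM, within which only single low libraries of B6 (78.4 CPM) and NZO (65.8 CPM) fell. Me1 was lower in Cast (-1.96 ± 0.33, adjusted p = 1.37e-06, and -1.82 without Cast 5 and 6), and higher in NZO (1.20 ± 0.24, adjusted p = 4.54e-05, and 1.35 without NZO 8) and in PWK (0.84 ± 0.25, adjusted p = 0.00435).

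G6pdx had a median of 15.3 CPM (3.86 to 42.5) in NZO and of 4.17 CPM (3.01 to 5.08) in WSB. In the other strains the medians were 8.68 CPM (6.39 to 13.6) in B6, 7.04 (4.24 to 15.5) in Cast, 6.81 (3.58 to 16.3) in PWK, 5.28 (3.29 to 9.01) in NOD, 5.05 (4.21 to 12.1) in AJ and 4.88 (3.46 to 8.66) in strain-129. The highest NZO value was that of NZO 8, which was low for most other genes. G6pdx was higher in NZO (1.35 ± 0.21, adjusted p = 3e-07, and 0.97 without NZO 8) and lower in WSB (-0.88 ± 0.25, adjusted p = 0.00355). G6pdx overlaps Ikbkg, which reached 157 CPM, on the other strand, so its low level is uncertain.

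Pgd, the next dehydrogenase of the pentose phosphate pathway, was higher in NZO (0.94 ± 0.16, and 0.93 without NZO 8) and lower in PWK (-0.78 ± 0.18, adjusted p = 0.000336) in 8 of 8 libraries, with a median of 32.7 CPM (18.7 to 35.1) in PWK against medians of 36.2 CPM in NOD to 83.1 CPM in NZO. Tkt, the transketolase gene of its non-oxidative branch, was higher in NZO (0.69 ± 0.12, and 0.75 without NZO 8) and lower in WSB (-0.44 ± 0.13).

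Of the 9 elongation and desaturation genes, all were called in WSB, 3 higher and 6 lower. Of all genes, 22.6% were higher and 22.4% lower in WSB, 26.7% were higher in NZO and 28.8% lower in Cast. The shares in the other strains are given above. In NZO 6 were higher and 0 lower, in Cast 0 were higher and 5 lower (Elovl5 and Elovl6 alone without Cast 5 and 6), in AJ 3 and in B6 2 were higher, in strain-129 2 and in NOD 1 were lower, and in PWK none was called. Elovl6, which elongates palmitate to stearate, had a median of 775 CPM (52.3 to 1349.9) in NZO and of 313 CPM (74.3 to 793) in WSB. In the other strains the medians were 217 CPM (42.2 to 589) in PWK, 179.9 (68.8 to 240.5) in B6, 149 (111 to 544) in AJ, 113 (71.2 to 157) in NOD, 75.1 (19.9 to 116) in Cast and 59.2 (34.5 to 164) in strain-129. NZO libraries fell into a high range of 549.7 to 1349.9 CPM (5 libraries) and NZO 5, 6 and 8 at 52.3 to 221 CPM, within the range of the other strains.

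Elovl6 was 4.26-fold higher in NZO (log2 fold change 2.09 ± 0.32, adjusted p = 2.74e-07), and by 2.25 without NZO 8. It was lower in Cast (-1.61 ± 0.46, adjusted p = 0.00219, and -1.36 without Cast 5 and 6) and in strain-129 (-1.48 ± 0.43, adjusted p = 0.00728). In WSB it was higher (1.09 ± 0.34, adjusted p = 0.00767) in 5 of 8 libraries, a call that ended without WSB 3 or 4. A noncoding gene, Gm35986, overlaps Elovl6 on the other strand at up to 28.9 CPM.

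Scd1 had a median of 39101 CPM (404 to 46608) in NZO, against 3847 CPM (1615 to 9344) in WSB, 15765 (7091 to 27394) in B6, 10749.8 (7156 to 21902) in AJ, 8161 (3771 to 19218) in PWK, 6526 (2541 to 9496) in Cast, 5517 (3055 to 13007) in NOD and 5512 (2194 to 12462) in strain-129. The lowest and the highest of all 60 values were both from NZO, 404 CPM in NZO 8 and 46608 CPM in NZO 7, and the other NZO libraries lay at 11958 CPM or above. Scd1 was 4.01-fold higher in NZO (2.01 ± 0.28, adjusted p = 4.91e-08), and by 2.18 without NZO 8. It was higher in B6 (0.98 ± 0.32, adjusted p = 0.0143), a call that ended without B6 6 or 8, and lower in WSB (-1.24 ± 0.37, adjusted p = 0.00489). Scd2, whose reads could be shared with the similar Scd1, was higher in NZO (1.36 ± 0.17, and 1.39 without NZO 8), in 5 of 8 libraries, and lower in WSB (-0.92 ± 0.21).

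Elovl2 had a median of 289.5 CPM (234 to 413) in WSB, against 566 CPM in strain-129 to 875 CPM in AJ, and was lower in WSB (-1.17 ± 0.19, adjusted p = 1.47e-06) in 8 of 8 libraries. It was also lower in Cast (-0.48 ± 0.19, and -0.12 without Cast 5 and 6, adjusted p = 0.58) and higher in AJ (0.60 ± 0.19). Elovl5 was higher in NZO (0.94 ± 0.20, and 1.07 without NZO 8) and AJ (0.77 ± 0.23, adjusted p = 0.00888), and lower in Cast (-1.27 ± 0.26, and -0.87 without Cast 5 and 6) and WSB (-0.88 ± 0.23). Fads2, the delta-6 desaturase gene, was higher in NZO (0.73 ± 0.21, and 0.86 without NZO 8), B6 (0.78 ± 0.22, adjusted p = 0.00452) and AJ (0.69 ± 0.24, adjusted p = 0.026, ended without AJ 1, 3, 4 or 6). It was lower in Cast (-0.73 ± 0.25, and -0.33 without Cast 5 and 6, adjusted p = 0.221) and WSB (-0.64 ± 0.23, ended without WSB 6). Fads1, its delta-5 neighbour on chromosome 19, was higher in NZO (0.67 ± 0.22, ended without NZO 2, and 0.79 without NZO 8) and lower in Cast (-0.88 ± 0.26, and -0.53 without Cast 5 and 6, adjusted p = 0.0906) and WSB (-0.70 ± 0.24). Elovl1, an elongase of saturated very long chains, was higher in WSB (0.58 ± 0.14, adjusted p = 0.00036) and lower in NOD (-0.43 ± 0.15, adjusted p = 0.0213, ended without NOD 6, 7 or 8) and strain-129 (-0.39 ± 0.15, ended in 26 of the 60 fits that left out 1 library). Cast 5 and 6 lay at 135 and 139 CPM for Elovl2, where the other Cast libraries had 570.4 to 634 CPM, and at 108 and 106 CPM for Fads1, where the others had 403 to 479.9 CPM. The same held for Elovl5, with 81.3 and 85.1 CPM against 290.5 to 619.8 CPM.

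**Figure D4:**
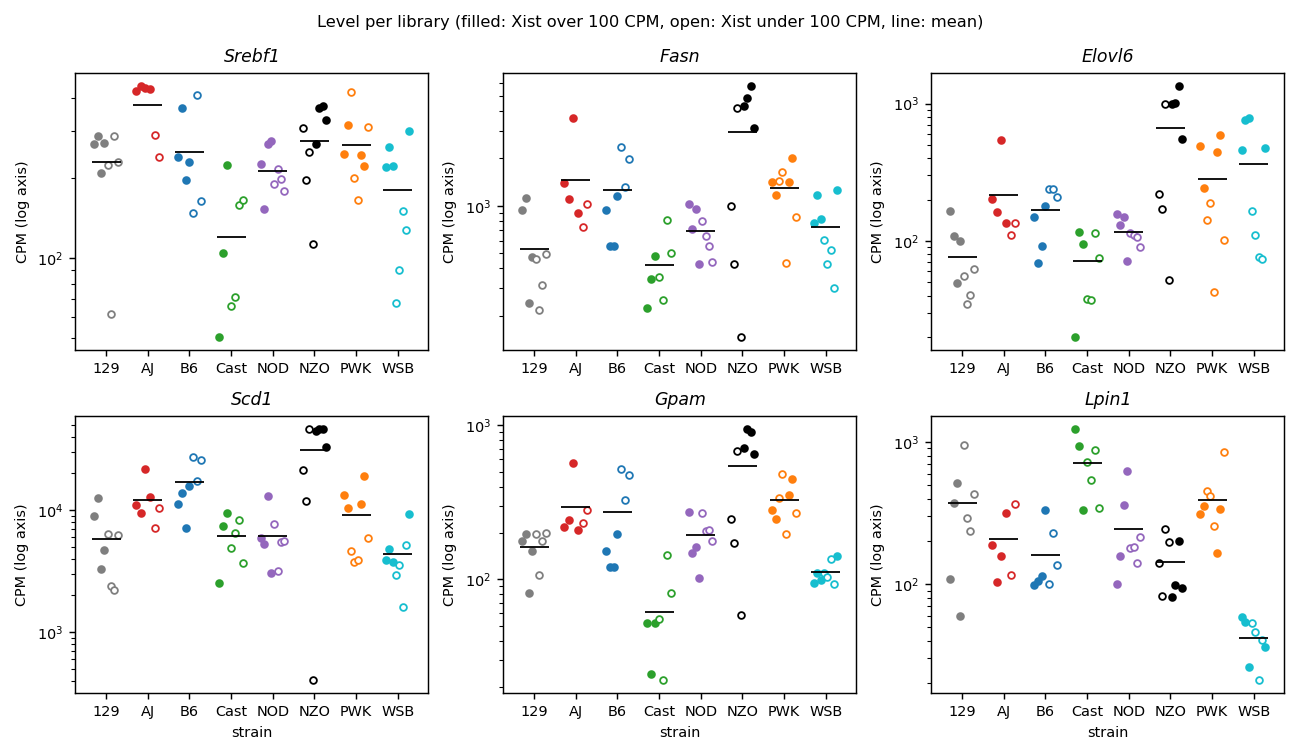
CPM (log axis) of 6 genes in each library, by strain; filled points are the 31 libraries with Xist at 646 CPM or above, open points the 29 at 8.90 CPM or below, and the line is the strain's mean. The same 5 NZO libraries (1, 2, 3, 4 and 7) lie high for Fasn, Elovl6, Scd1 and Gpam, with AJ 3 among them for Fasn and WSB and PWK libraries among them for Elovl6, NZO 8 lies low, and all 8 WSB libraries lie lowest for Lpin1.

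Elovl3, an elongase of saturated chains known in mouse liver for a strong sex difference, varied more within strains than between them. Its medians were 579 CPM (10.7 to 1246) in WSB, 455 (9.56 to 1090.4) in NOD, 189.7 (0.930 to 722) in PWK, 113 (2.92 to 456) in strain-129, 10.9 (3.16 to 149) in NZO, 6.91 (3.50 to 78.2) in AJ, 6.37 (0.778 to 343) in B6 and 4.29 (1.76 to 1008) in Cast. Every strain held libraries at 22.2 CPM or below and at 78.2 CPM or above. The labels give no sex, and Xist, the RNA that coats an inactivated X, was therefore used as a measured number. The 31 libraries with Xist at 646 to 1422 CPM had Elovl3 at 0.778 to 22.2 CPM. The 29 libraries with Xist at 0.193 to 8.90 CPM had Elovl3 at 1.76 to 1246 CPM, and among them Cast 5, Cast 6 and NZO 8 lay at 5.18 CPM or below, while the rest were at 32.2 CPM or above. Elovl3 was called higher in WSB (2.29 ± 0.85, adjusted p = 0.0245), with 4 of 8 libraries above the mean of the others. That call ended with Xist as a covariate (adjusted p = 0.0728) and without WSB 5, 6, 7 or 8.

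**Figure D5:**
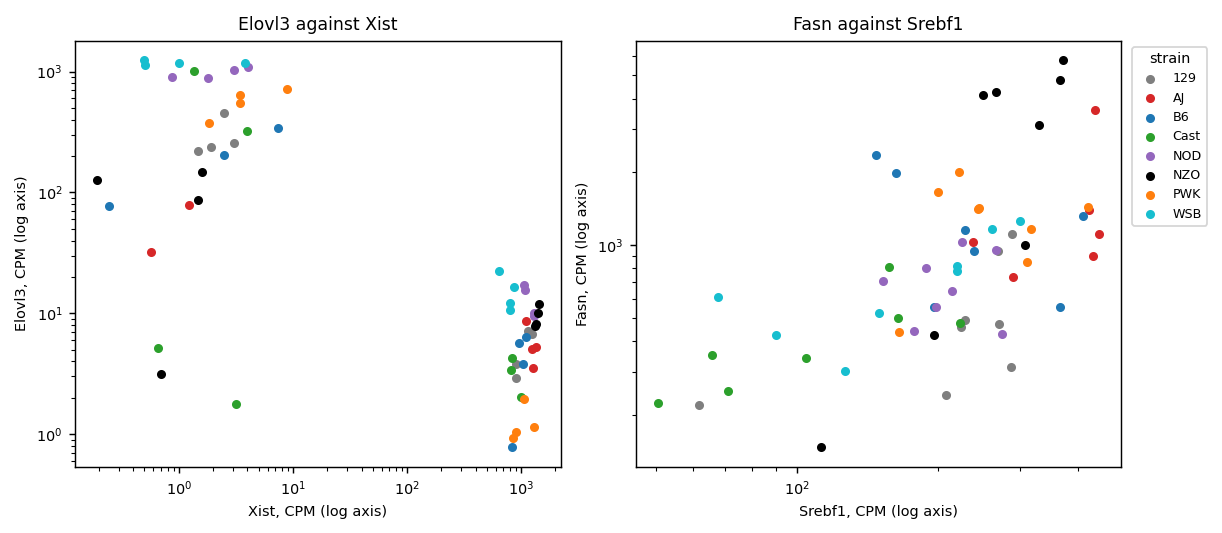
Left, Elovl3 against Xist, and right, Fasn against Srebf1, both in CPM on log axes, with 1 point a library and colours for strains. Elovl3 is at 22.2 CPM or below in the 31 libraries with high Xist, and NZO libraries reach higher Fasn levels than AJ libraries with like or higher Srebf1.

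In a model with strain and the log2 level of Xist, 18 of the 33 genes were called, 15 higher and 3 lower with Xist, where 34.9% of all genes were called. Without Cast 5 and 6 the count was 21, the 18 and another 3, where 35.2% of all genes were called. With a block for the library number, which tracked Xist, 6 of the 18 calls were kept and 12 ended, as given below. No share of all genes from that fit is given, so a loss particular to these genes cannot be read from this. Elovl3 fell by 0.62 on the log2 scale for each log2 unit of Xist (SE 0.059, adjusted p = 1.43e-12). Acsl4 (-0.05 ± 0.013) and Lpin2 (-0.04 ± 0.011) were lower with Xist, calls that ended with that block. Elovl6 (0.11 ± 0.025, adjusted p = 0.000595), Acacb (0.08 ± 0.020), Fads1 (0.07 ± 0.013) and Scd1 (0.07 ± 0.024, adjusted p = 0.0234) had the largest positive slopes among the called genes.

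The slope on Xist differed between strains for 19 of the 33 genes, where it did for 19.9% of all genes, in an interaction test added after the data were seen. Without NZO 8 the count was 18, where 20.2% of all genes were called, and without Cast 5 and 6 it was 24, where 22.9% were. Elovl6 rose with Xist by 0.25 ± 0.056 in WSB and 0.24 ± 0.067 in PWK, and its slope was -0.09 ± 0.059 in B6, not called, as in the other 5 strains. Over all genes the slope within a strain was called for 10.1% in WSB, 10.2% in PWK, 5.78% in B6, 0.897% in AJ, 7.37% in strain-129, 22.3% in Cast (16.4% without Cast 5 and 6), 10.7% in NOD and 7.15% in NZO. The 4 WSB libraries with high Xist had Elovl6 at 459 to 793 CPM, against 74.3 to 166 CPM in the 4 with low Xist. In PWK the ranges were 245 to 589 CPM with high Xist and 42.2 to 188 CPM with low Xist. In B6 the order was the opposite, with 68.8 to 179.9 CPM in the 4 libraries with high Xist and 208 to 240.5 CPM in the 3 with low Xist. The B6 slope was called for Me1 (-0.16 ± 0.046, adjusted p = 0.0258). It was not called for Fasn (adjusted p = 0.289), Acly (0.211), Gpam (0.0538), Scd1 (0.476) or Acacb (0.268). Fasn in B6 lay at 554 to 1149 CPM with high Xist and at 1316 to 2349 CPM with low Xist. How often such ranges lie apart over all genes was not counted, so nothing is drawn from them. In PWK Me1 rose with Xist (0.17 ± 0.050, adjusted p = 0.0169). In NZO the slope was positive and called for 10 genes, and for 3 without NZO 8, where 4.39% of all genes were called. PWK also had 10 such genes, WSB 4, Cast 4 and NOD 3. The Cast genes were Elovl2, Fads1, Fads2 and Agpat3. None of them was called without Cast 5 and 6 (adjusted p = 0.886, 0.912, 0.36 and 0.0544). Dgat1 alone then had a positive slope called in Cast (0.08, adjusted p = 0.00087). Scd2 rose with Xist in NZO in both fits (0.17 ± 0.024, adjusted p = 3.66e-06, and 0.21 without NZO 8), as did Acaca (0.15 ± 0.036, and 0.12). The calls of Fasn (0.17 ± 0.052), Gpam (0.15 ± 0.041) and Acly (0.15 ± 0.047) ended without NZO 8 (adjusted p = 0.147 for Fasn, 0.114 for Gpam and 0.199 for Acly). The 4 NZO libraries with high Xist had Scd2 at 30.7 to 57.2 CPM, against 5.44 to 20.4 CPM in the 4 with low Xist, NZO 8 among them. In WSB Dgat2 lay at 536 to 707 CPM in the 4 libraries with high Xist and at 343 to 402 CPM in the 4 with low Xist.

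Of the 4 acyl-CoA synthetases, which commit fatty acids to different fates, all were called in Cast (Acsl3 and Acsl4 alone without Cast 5 and 6) and 3 in WSB. Of all genes, 59.6% were called in Cast (50% without Cast 5 and 6) and 45% in WSB. Acsl3, known from lipid droplets, had the largest share of variance between strains of all 33 genes and was called in 7 of the 8 strains. It averaged 41.2 ± 10.4 CPM in NZO, 38.3 ± 7.94 in B6, 31.2 ± 6.92 in NOD, 19.3 ± 7.17 in AJ, 15.4 ± 2.93 in WSB, 15.1 ± 5.15 in PWK, 13.5 ± 4.51 in strain-129 and 12.6 ± 4.16 in Cast. Acsl3 was higher in NZO (1.11 ± 0.14, adjusted p = 4.33e-09, and 1.10 without NZO 8), B6 (0.99 ± 0.15, adjusted p = 5.48e-07) and NOD (0.65 ± 0.15, adjusted p = 0.000493), in every library of those strains. It was lower in Cast (-0.84 ± 0.18, and -1.12 without Cast 5 and 6), strain-129 (-0.73 ± 0.17), PWK (-0.54 ± 0.16) and WSB (-0.51 ± 0.16). All 7 calls held when any 1 library was left out. Utp14b overlaps Acsl3 on the same strand at up to 23.4 CPM, so part of these low levels could be its reads.

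Acsl4, which prefers arachidonate and lies on chromosome X, had a median of 115 CPM (38.2 to 365) in Cast, against 41.6 CPM (17.8 to 58.1) in strain-129, 54.3 (42.6 to 63.3) in AJ, 53.8 (36.0 to 74.7) in B6, 54.6 (38.7 to 67.4) in NOD, 67.6 (44.8 to 81.1) in NZO, 54.2 (40.0 to 89.0) in PWK and 60.2 (36.9 to 107) in WSB. It was 2.71-fold higher in Cast (1.44 ± 0.19, adjusted p = 2.45e-09) in 6 of 7 libraries, and at 0.72 without Cast 5 and 6, which lay at 365 and 233 CPM where the other Cast libraries had 38.2 to 154 CPM. Acsl4 was lower in strain-129 (-0.68 ± 0.21). Acsl1, the main liver enzyme, was lower in Cast (-0.72 ± 0.20, and -0.34 without Cast 5 and 6, adjusted p = 0.0788) and higher in WSB (0.56 ± 0.17, adjusted p = 0.00675), with means of 1756 CPM in WSB and 809 CPM in Cast. Cast 5 and 6 lay at 163 and 228 CPM, and the other Cast libraries at 849 to 1261 CPM. Acsl5, also found in intestine, was higher in NZO (0.60 ± 0.16, and 0.73 without NZO 8) and PWK (0.44 ± 0.16, ended without PWK 1, 6 or 7) and lower in Cast (-0.61 ± 0.19, and -0.40 without Cast 5 and 6, adjusted p = 0.101) and WSB (-0.62 ± 0.18).

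Of the 7 genes of glycerolipid synthesis, 3 were higher and 3 lower in Cast, 4 higher and 1 lower in PWK, 2 higher and 2 lower in WSB, and 1 higher and 1 lower in NZO. Of all genes, 30.8% were higher and 28.8% lower in Cast, and 22.5% and 22.7% in PWK. The shares were 22.6% and 22.4% in WSB, and 26.7% and 19.5% in NZO. Gpam, the mitochondrial glycerol-3-phosphate acyltransferase that begins the pathway, had a median of 667 CPM (58.9 to 949.7) in NZO and of 52.0 CPM (22.2 to 143) in Cast. In the other strains the medians were 309 CPM (196 to 486) in PWK, 238 (209 to 570.2) in AJ, 197 (119.8 to 517) in B6, 193 (103 to 275) in NOD, 177 (81.4 to 199) in strain-129 and 106 (93.9 to 141) in WSB. The 8 WSB values lay within a narrow range, and 6 of the 7 Cast values lay below all of them. Gpam was higher in NZO (1.62 ± 0.23, adjusted p = 6.53e-08, and 1.78 without NZO 8) and PWK (0.78 ± 0.25, adjusted p = 0.0083), and lower in Cast (-1.98 ± 0.33, adjusted p = 1.09e-06, and -1.78 without Cast 5 and 6) and WSB (-1.01 ± 0.29, adjusted p = 0.00348).

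Lpin1 encodes a phosphatidate phosphatase that also acts as a nuclear coactivator and is induced by fasting in mouse liver. Lpin1 had a median of 43.4 CPM (21.1 to 58.9) in WSB and of 717 CPM (332 to 1242) in Cast. In the other strains the medians were 346 CPM (165 to 849) in PWK, 329.9 (59.1 to 950.0) in strain-129, 181 (99.98 to 625.2) in NOD, 173 (103 to 368) in AJ, 120.0 (81.4 to 242) in NZO and 113 (97.8 to 333) in B6. All 8 WSB libraries lay below every library of the other strains, of which the lowest, strain-129 4, was at 59.1 CPM. Lpin1 was 6.56-fold lower in WSB (log2 fold change -2.71 ± 0.36, adjusted p = 1.44e-08), the largest of the 93 called differences over genes and strains. It was higher in Cast (1.96 ± 0.26, adjusted p = 5.67e-09, and 2.03 without Cast 5 and 6) in all 7 libraries and in PWK (0.98 ± 0.27, adjusted p = 0.00218). In strain-129 it was higher by 0.87 ± 0.27, adjusted p = 0.0131, and by 0.51 without strain-129 6 (adjusted p = 0.199). In NZO it was at -0.70 ± 0.31 (adjusted p = 0.0574), and without NZO 8 it was lower by 0.80 (adjusted p = 0.0478).

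Its paralog Lpin2 was higher in Cast (0.87 ± 0.17, adjusted p = 1.55e-05, and 0.72 without Cast 5 and 6) and lower in NZO (-0.70 ± 0.18, adjusted p = 0.0013, and -0.61 without NZO 8). Dgat2, which esterifies newly made fatty acids, had medians of 551 CPM in AJ and 334 CPM in Cast. It was higher in AJ (0.50 ± 0.12, adjusted p = 0.00133) and WSB (0.28 ± 0.11, ended without WSB 1, 3, 4 or 9), and lower in Cast (-0.51 ± 0.12, and -0.33 without Cast 5 and 6). Dgat1, the other diacylglycerol acyltransferase, had the smallest span of all 33 genes, with strain means of 15.2 CPM in NOD to 19.7 CPM in Cast. It was higher in Cast (0.24 ± 0.07, adjusted p = 0.00354), and at 0.20 without Cast 5 and 6. That call ended without Cast 1 (0.08, adjusted p = 0.249). Dgat1 was also higher in PWK (0.17 ± 0.07, ended without PWK 1, 2 or 9) and lower in NOD (-0.19 ± 0.07, adjusted p = 0.0306, ended without NOD 1, 2, 5 or 7). Agpat2, a lysophosphatidate acyltransferase, was higher in WSB (0.40 ± 0.07) and PWK (0.23 ± 0.07) and lower in Cast (-0.47 ± 0.08, adjusted p = 1.47e-06, and -0.33 without Cast 5 and 6). Agpat3, of the same enzyme family, was higher in strain-129 (0.25 ± 0.08, adjusted p = 0.0113) and lower in PWK (-0.25 ± 0.08, adjusted p = 0.00869).

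Within a strain, the library with the highest Srebf1 was also the one with the highest Fasn in 3 of the 8 strains (strain-129 2, NZO 3 and WSB 9). In NZO the lowest library for 24 of the 33 genes was NZO 8, and in PWK the lowest for 19 was PWK 5. In AJ the highest library for 18 genes was AJ 3.

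Other genes of the pathway were read from a list of 53, of which 51 were in the table and 50 were tested. Of these, 48 (96%) were called among the strains, where 89.8% of all genes were. Against the mean of the other strains, 17 were higher and 10 lower in NZO, 54% of the 50 against 46.1% of all genes. Without NZO 8 they were 17 and 9, with Mogat2 not among the genes tested. Again no share of all genes from that fit is set beside them, and nothing is drawn from them. In Cast 15 were higher and 19 lower, 68% against 59.6% of all genes. Without Cast 5 and 6 they were 14 and 12 of the 50, near the 50% of all genes called in that fit (25.4% higher and 24.7% lower). There were 14 higher and 14 lower in WSB (56% against 45%), 14 and 7 in PWK (42% against 45.2%), 11 and 10 in B6 (42% against 34.1%), 10 and 5 in AJ (30% against 24.1%), 7 and 8 in strain-129 (30% against 24.6%) and 7 and 5 in NOD (24% against 28.3%). Their median log2 fold change was 0.04 in NZO and -0.16 in Cast. By the rule for naming genes, 5 of them are given.

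Mogat1, a monoacylglycerol acyltransferase, had a median of 15.6 CPM (1.45 to 23.5) in NZO and of 0.101 CPM (0 to 0.238) in PWK. Mogat1 was higher in NZO (4.78 ± 0.33, adjusted p = 2.61e-18, and 4.94 without NZO 8), B6 (1.79 ± 0.40) and strain-129 (1.60 ± 0.39), and lower in PWK (-3.14 ± 0.64), WSB (-2.02 ± 0.57) and Cast (-1.83 ± 0.59, and -1.36 without Cast 5 and 6, adjusted p = 0.0705). Pnpla3, a lipid droplet protein and known target of both SREBP-1c and ChREBP, had a median of 101 CPM (1.11 to 297) in NZO, 47.5 (4.28 to 174) in PWK and 23.0 (6.94 to 103) in AJ, against 1.23 CPM (0.1497 to 2.60) in Cast, 0.806 (0.380 to 11.9) in strain-129, 1.57 (0.335 to 6.86) in WSB, 4.31 (1.54 to 26.0) in NOD and 11.6 (4.13 to 22.2) in B6. It was higher in NZO (3.88 ± 0.46, adjusted p = 3.99e-10, and 4.05 without NZO 8), PWK (3.04 ± 0.47) and AJ (1.80 ± 0.56), and lower in Cast (-3.75 ± 0.87, and -3.35 without Cast 5 and 6), WSB (-2.65 ± 0.74) and strain-129 (-2.11 ± 0.71). Insig1, an SREBP target that holds SREBP in the endoplasmic reticulum, was lower in Cast (-1.95 ± 0.26, and -1.69 without Cast 5 and 6) and higher in AJ (0.63 ± 0.22) and B6 (0.62 ± 0.21). Acss3 was higher in NZO (1.14 ± 0.26, and 1.26 without NZO 8), Cast (0.94 ± 0.28, and 1.28 without Cast 5 and 6) and PWK (0.84 ± 0.27), and lower in strain-129 (-1.06 ± 0.32) and AJ (-1.01 ± 0.36). Gpat2, a low-level acyltransferase gene, was higher in B6 (1.55 ± 0.23) and WSB (0.94 ± 0.23) and lower in NZO (-1.11 ± 0.28, and -1.16 without NZO 8).

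Marker levels of other liver cells differed between strains as well. The summed level of 6 Kupffer cell and macrophage markers had a median of 475 CPM in B6 and 377 CPM in NZO, against 159 to 234 CPM in the other strains. That of 5 cholangiocyte markers had a median of 63.9 CPM in NZO (25.4 to 158 CPM), against 23.9 to 48.5 CPM elsewhere. This sum mostly follows Spp1, with a median of 27.0 CPM (10.6 to 147) over all libraries. Sox9 had a median of 3.57 CPM (1.28 to 22.6), and Krt7, Krt19 and Epcam stayed at 1.99 CPM or below. The summed hepatocyte markers had a median of 78207 CPM in NZO and 68277 CPM in Cast, against 76882 to 123386 CPM in the other strains. The part of these differences in the results above was not tested.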

How the data were processed

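The deposited table held estimated counts per gene, made by the authors with a counter not given in the sources used here, and 20.96% of values were not whole. Whole counts had been assumed when the tests were chosen, so these values were rounded. The authors also deposited log2 values after variance stabilisation, used for 1 alternative, and a table of gene positions, used for gene starts and overlaps. Exon lengths were taken from GENCODE vM21 (GRCm38). GRCm38 and DESeq2 are named per the submitters' processing notes. No source used here names the aligner, the annotation or the use of strand in counting. Of 61 labelled samples, 60 matched a column, 1 B6 sample was not analysed here, and 1 column matching no sample was not used.

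Genes were filtered with filterByExpr by strain, scaled by TMM, and tested with edgeR 4.0.16 in R 4.3.3 (quasi-likelihood test, all 60 libraries in 1 fit, Benjamini-Hochberg threshold 0.05). CPM used the same scaling, and log2 CPM a prior count of 2. Each strain was set against the mean of the other 7, the model with Xist as a number and that with its interaction with strain followed, and the fit was tested on simulated data with 200 genes changed. Alternatives used DESeq2 1.42.0, limma 3.58.1, RLE scaling, no filter, no 18S sequence, a replicate block, Xist as covariate, each library left out, and, added after the data were seen, Cast 5 and 6 left out together. The genes given in every strain were Srebf1, Mlxipl, Fasn and those with the widest strain means in each role, and per strain those with the largest called changes. Of the other pathway genes, those with the widest strain means were named, and 1 that the rule selects is not reported here. The members and lists were chosen with earlier results of these data known. Totals of 19.98 to 69.2 M reads a library set the counting precision.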

Additional observations from a re-analysis of the deposited data

Results flagged for a closer look

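Of 120 groups of libraries examined for 1 value far from the others, 12 had one. The cut-off is set so that about 1 in 20 groups of normally distributed values pass it. The values were CPM, not logs, and the groups share libraries, so that rate need not hold here. AJ 3 was far above the other AJ libraries for Fasn (3581 CPM, nearest 1391), Acly (1455 CPM, nearest 548), Elovl6 (544 CPM, nearest 203) and Gpam (570.2 CPM, nearest 281). Scd1 was far above in NOD 3 (13007 CPM, nearest 7737) and WSB 9 (9344 CPM, nearest 5159). Thrsp was far above in B6 7 (971 CPM, nearest 339.8) and Cast 7 (1046 CPM, nearest 436). Elovl3 stood at 1008 CPM in Cast 8 (nearest 319.7) and Lpin1 at 849 CPM in PWK 9 (nearest 453). G6pdx stood at 42.5 CPM in NZO 8 (nearest 18.2), and Srebf1 was far below the rest in strain-129 7 (61.7 CPM, nearest 209).

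The slope on Xist differed between strains for 19 genes by edgeR's interaction test, added after the data were seen. The smallest adjusted p-values were those of Scd2 (0.000743), Dgat2 (0.00353), Me1 (0.00601), Fads1 (0.00676), Agpat3 (0.00676), Elovl1 (0.00723), Acsl3 (0.00798), Acacb (0.00826) and Elovl3 (0.00907). Those of Acss2 (0.0104), Acsl4 (0.0147), Elovl6 (0.0203), Acaca (0.0204), Fads2 (0.0205) and Gpam (0.0241) followed, with Agpat2 (0.0279), Pgd (0.0336), Tkt (0.0429) and Acsl5 (0.0467).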

How the results depend on the processing

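Of 93 calls of a gene in a strain, none turned its direction under any alternative run. DESeq2, RLE scaling and the fit without the 18S sequence kept all 93 calls, the fit with no filter 92, the Xist covariate 92, the replicate block 85 and limma 84, and 70 calls held whichever library was left out. Leaving out Cast 5 and 6 together ended 6 of the 21 Cast calls. With the Xist covariate NOD had 5 calls in place of 3, and without NOD 7 it had 1. With 1 library left out, the counts ranged from 30 to 32 among strains, 6 to 11 in strain-129, 4 to 6 in AJ, 3 to 5 in B6, 20 to 23 in Cast, 1 to 4 in NOD, 18 to 21 in NZO, 9 to 13 in PWK, 16 to 20 in WSB and 15 to 19 with Xist. The interaction count was 18 without NZO 8 and 24 without Cast 5 and 6, and no other library was left out of it.

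With the replicate block the Xist count was 6 in place of 18 (Elovl2, Elovl3, Elovl6, Fads1, Scd1 and Acacb kept their call) and the WSB count 16 in place of 20. No share of all genes from that fit is set beside these counts. The numbers tracked Xist, since all libraries numbered 1 or 2 had high Xist and all numbered 5 or 8 low Xist. The sample numbers did not pair the libraries: over 181 pairs with the same number the median correlation of deviations was 0.20 (-0.43 to 0.53), against -0.07 for other numbers, and 7 libraries matched best with their own number.

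The labels give no batch or time of collection, so these could not be set apart from strain. They give no sex either, but every strain held libraries with high and with low Xist. With Xist as a covariate, 92 of the 93 calls were kept. Genes at low levels (Scd2, G6pdx, Acsl3, Dgat1) and those with overlapping neighbours rest on fewer or uncertain reads. The diet was the same in all libraries, so nothing here bears on its effect.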
